A study of Mus musculus with 4 samples.

Results

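Substance P and neurotensin are short neuropeptides, and 5 genes make up their core signalling systems in the mouse. Tac1 encodes the precursor of substance P and neurokinin A, and Tacr1 encodes the receptor that substance P prefers. Nts encodes the precursor of neurotensin and neuromedin N, Ntsr1 encodes the high-affinity neurotensin receptor and Ntsr2 the lower-affinity one. These genes were taken by their symbols from the authors' annotated probe sets: each was measured by 1 probe set, giving 5 of the 21265 genes named by a single identifier. All 5 were among the 14520 genes kept by a filter on low signal, which removed probe sets with a mean signal under 717.

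Both peptides are released from neurons and act on receptors that couple mainly to the G proteins Gq and G11, which activate phospholipase C, release calcium from internal stores and raise excitability. In the hypothalamus, substance P neurons lie in the ventromedial and other nuclei. Neurotensin neurons of the lateral hypothalamus project to the ventral tegmental area, where dopamine neurons carry Ntsr1. Neurotensin given into the brain lowers food intake and body temperature in rodents. Ntsr2 is found largely in astrocytes of the rodent brain.

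RNA from the hypothalamus of male mice aged 12 weeks was hybridised to 4 Affymetrix arrays. Of these, 2 (DFosB A and DFosB B) came from mice whose genotype is spelled ENOI2DeltaFosB in the sample labels and ENO2DeltaFosB in the series title. The other 2 (control A and control B) came from wild-type mice, and no mice were treated. DeltaFosB is the truncated, long-lived splice variant of FosB, a transcription factor of the AP-1 family. Eno2 is the gene of the enolase found in neurons. The labels describe the transgene no further. They do not say whether each array holds RNA of a different animal. The p-values given here rest on the spread between 2 arrays a group, which limma moderates with the spread of the other genes tested. That spread between arrays may therefore be technical.

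Array totals lay between 68636594 and 68961786 signal units. The Fosb probe set read 1579 and 2189 on the DFosB arrays, against 1377 and 1220 on the control arrays, and its log2 fold change was 0.52 (SE 0.13, adjusted p = 0.0389 in limma). Whether that probe set reads the transgene's transcript was not tested. The labelled tissue was checked with 9 hypothalamic marker genes past the filter, of which 5 were higher on the DFosB arrays and 0 lower. The signals of that list, the 1 marker below the filter included, summed to 45534 and 47285 on the DFosB arrays, against 16766 and 27675 on the control arrays. The control arrays stood apart for 2 peptides of the lateral hypothalamus: Hcrt, the orexin precursor, read 9467 and 9525 on the DFosB arrays, against 2557 and 7256 on control A and control B, and Pmch, the melanin-concentrating hormone precursor, read 12055 and 11570 on the DFosB arrays, against 6076 and 11170. Hcrt and Pmch were the brightest of the list on every array, so they weigh most in its sums. Neither passed the test (limma adjusted p = 0.0745 and 0.144). Markers of other cells differed too. Of 8 tested midbrain dopamine neuron markers 6 were lower on the DFosB arrays, and the signals of these markers, the 1 below the filter included, summed to 14010 and 14733 on the DFosB arrays, against 48305 and 39841 on the control arrays. All 8 genes of the oligodendrocyte and myelin list were lower as well. No marker of any list was at 0 on any array, but the lowest signal of any probe set was 0.68. A signal above 0 therefore does not show that a marker was detected. Fezf1, a ventromedial nucleus marker, read 185 and 239 on the control arrays. Slc6a3, a dopamine marker, read 717 and 770 on the DFosB arrays. In whole tissue, fewer cells of a type and less RNA per cell cannot be told apart. A difference in the tissue dissected cannot be told apart from either, and it was not tested.

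Signals are linear probe set intensities, and fold changes are differences of mean log2 signal, DFosB minus control, tested with limma at a Benjamini-Hochberg adjusted p of 0.05 over all 14520 genes. Levels of different probe sets are not compared. Of the 5 genes 1 rose (Tacr1), 1 fell (Ntsr1) and 3 did not pass the test. Across all genes tested 13.1% passed, 6.18% higher and 6.91% lower, so many other genes moved in the same comparison. An unadjusted p under 0.05 in limma was found for 4423 of the 14520 genes. The median size of the log2 fold change was 0.20 over the 5 genes and 0.097 over all genes tested.

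FosB proteins pair with Jun proteins and bind AP-1 motifs, so the RefSeq promoter windows of the 5 genes (GRCm38.p6, 250 bases before to 50 after the start) were searched on both strands for the AP-1 letters TGAGTCA, whose reverse complement is TGACTCA, and for the cyclic AMP response element TGACGTCA. The 250 bases before the start are shown for Nts, which held the single match, and for Tac1 and Ntsr1, which held none. Capitals mark the AP-1 match, and each sequence runs 5′ to 3′ on the gene's strand.
Nts, chr10:102490419-102490668, minus strand: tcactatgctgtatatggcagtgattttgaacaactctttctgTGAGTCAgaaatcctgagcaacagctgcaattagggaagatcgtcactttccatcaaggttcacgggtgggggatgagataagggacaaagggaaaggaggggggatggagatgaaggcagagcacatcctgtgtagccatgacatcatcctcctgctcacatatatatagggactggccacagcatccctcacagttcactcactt
Tac1, chr6:7554811-7555060, plus strand: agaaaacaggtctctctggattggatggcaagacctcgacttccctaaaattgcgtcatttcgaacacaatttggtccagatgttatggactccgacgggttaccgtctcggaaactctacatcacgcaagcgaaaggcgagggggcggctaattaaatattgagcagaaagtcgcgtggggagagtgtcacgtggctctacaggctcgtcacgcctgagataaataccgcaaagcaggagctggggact
Ntsr1, chr2:180499726-180499975, plus strand: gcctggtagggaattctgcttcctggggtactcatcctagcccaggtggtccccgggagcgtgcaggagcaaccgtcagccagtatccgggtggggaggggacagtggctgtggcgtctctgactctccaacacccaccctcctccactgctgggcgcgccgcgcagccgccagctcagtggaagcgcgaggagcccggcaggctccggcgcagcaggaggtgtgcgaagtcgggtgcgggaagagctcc

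The match in the Nts window lay 207 to 201 bases before the start. Among 32851 mouse promoter windows of the same length, 5.2% held the AP-1 letters and 1.79% the cyclic AMP response element. The windows of Tacr1 and Ntsr2 also held neither motif. Before the start used, 3 of the 5 windows lay outside the annotated gene. That stretch lay inside the gene for Tacr1 and partly inside it for Ntsr2. The sequence before the annotated start of Tacr1 was therefore not searched. A match of letters is a description of the window and does not show binding.

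Tac1, the substance P precursor, did not differ beyond its spread. Its signal was 5632 and 6044 on the DFosB arrays, against 5479 and 6189 on the control arrays. Both DFosB values lay between the control values, so the groups overlapped. The means were 5838 ± 291 in DFosB and 5834 ± 502 in control (SD, n = 2 each), and the log2 fold change was 0.00 (SE 0.069, 95% interval −0.15 to 0.16, limma adjusted p = 0.983). The sign of so small a value changed with median centring of the arrays and with the array left out, and the interval still allows a change of up to 0.16 on the log2 scale in the higher direction.

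Tacr1, the substance P receptor, rose. Its signal was 1504 and 1520 on the DFosB arrays, against 1080 and 1152 on the control arrays. Both DFosB values were above both control values, and the gap between the groups was larger than the spread within either. The means were 1512 ± 11.2 in DFosB and 1116 ± 51.4 in control (SD, n = 2 each), a fold of 1.36 (95% interval 1.22 to 1.50). The difference of 0.44 on the log2 scale (SE 0.065, adjusted p = 0.00363 in limma) was at the 96.6 percentile of absolute fold changes among all genes tested. With any one array left out it stayed between 0.39 and 0.49, with limma adjusted p between 0.00444 and 0.0372. An unmoderated test, which uses each gene's own 2 residual degrees of freedom, was the one alternative that ended the call (adjusted p = 0.205). Probe sets of olfactory and vomeronasal receptors, taken as a measure of background, lay at 299 in the median and at 831 at their 95th percentile.

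Nts, the neurotensin precursor, did not pass the test. Its signal was 1227 and 1443 on the DFosB arrays, against 1145 and 1166 on the control arrays. Both DFosB values were higher, but DFosB A lay closer to the control arrays than to DFosB B. The means were 1335 ± 153 in DFosB and 1155 ± 14.7 in control (SD, n = 2 each), with a log2 fold change of 0.20 (SE 0.084, 95% interval 0.01 to 0.39, limma adjusted p = 0.141). One array decided the value: without DFosB A it was 0.32 (limma adjusted p = 0.0225), and without DFosB B it was 0.087 (adjusted p = 0.551). The part of the lateral hypothalamic markers Hcrt and Pmch in the Nts value was not tested.

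Ntsr1, the high-affinity neurotensin receptor, fell. Its signal was 1973 and 1507 on the DFosB arrays, against 2490 and 2254 on the control arrays. Both DFosB values were lower than both control values, and the DFosB arrays stood further from each other than the control arrays did. The means were 1740 ± 329 in DFosB and 2372 ± 167 in control (SD, n = 2 each), a fold of 0.728, and the log2 fold change was −0.46 (SE 0.115, 95% interval −0.72 to −0.20, limma adjusted p = 0.0350). The call ended without DFosB B (−0.26, limma adjusted p = 0.0763), without control A (−0.39, adjusted p = 0.190) and without control B (−0.53, adjusted p = 0.0588), and it also ended with quantile normalization (adjusted p = 0.0515) or robust estimation (adjusted p = 0.0754).

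Ntsr2, the lower-affinity neurotensin receptor, did not pass the test. Its signal was 8735 and 9381 on the DFosB arrays, against 9734 and 10009 on the control arrays. Both DFosB values were lower, although DFosB B was nearer to control A than to DFosB A. The means were 9058 ± 457 in DFosB and 9871 ± 194 in control (SD, n = 2 each), with a log2 fold change of −0.12 (SE 0.050, 95% interval −0.24 to −0.01, limma adjusted p = 0.131). Signals of the groups did not overlap for 4 of the 5 genes, and for 60.3% of all genes tested.

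**Figure D1:**
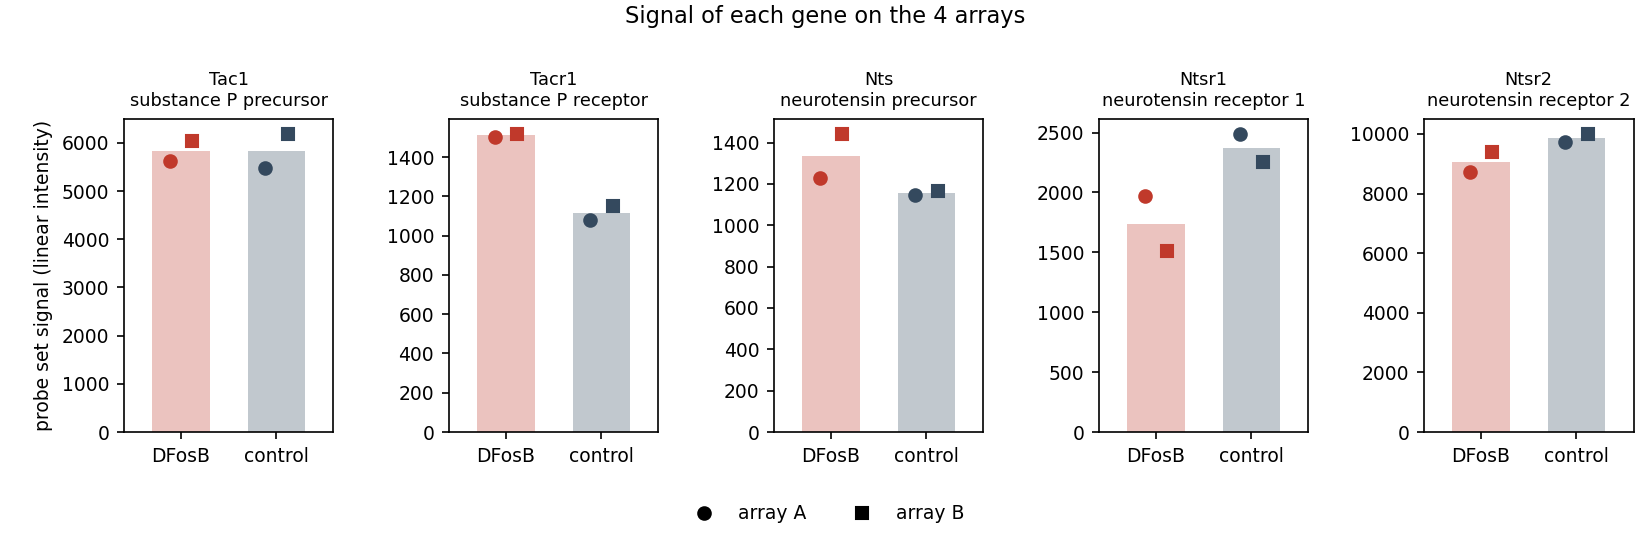
Probe set signal (linear intensity, axes from 0) of the 5 genes, DFosB left of control; bars are the means of 2 arrays, circles array A and squares array B. Both Tacr1 signals of the DFosB arrays (1504 and 1520) lie above both control signals, both Ntsr1 signals (1973 and 1507) lie below them, and the Tac1 groups overlap.

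**Figure D2:**
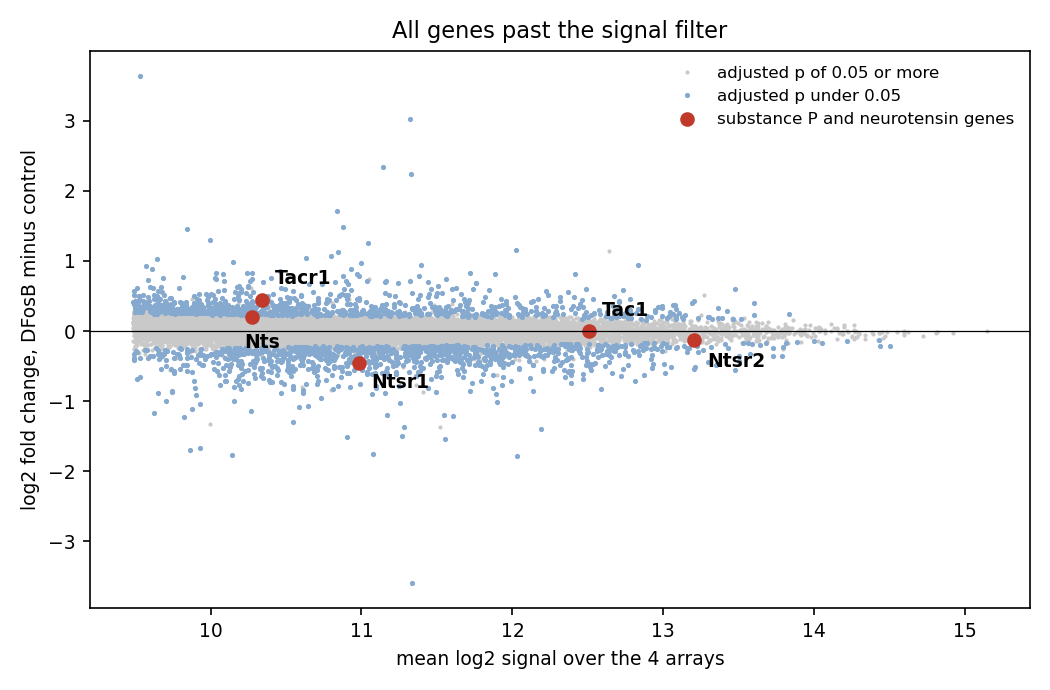
Log2 fold change, DFosB minus control, against the mean log2 signal over the 4 arrays for the 14520 genes tested; blue points passed at a limma adjusted p under 0.05, grey points did not, and red points are the 5 genes. Tacr1 (0.44) and Ntsr1 (−0.46) lie among the blue points, well inside the range of the genes that changed most.

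**Figure D3:**
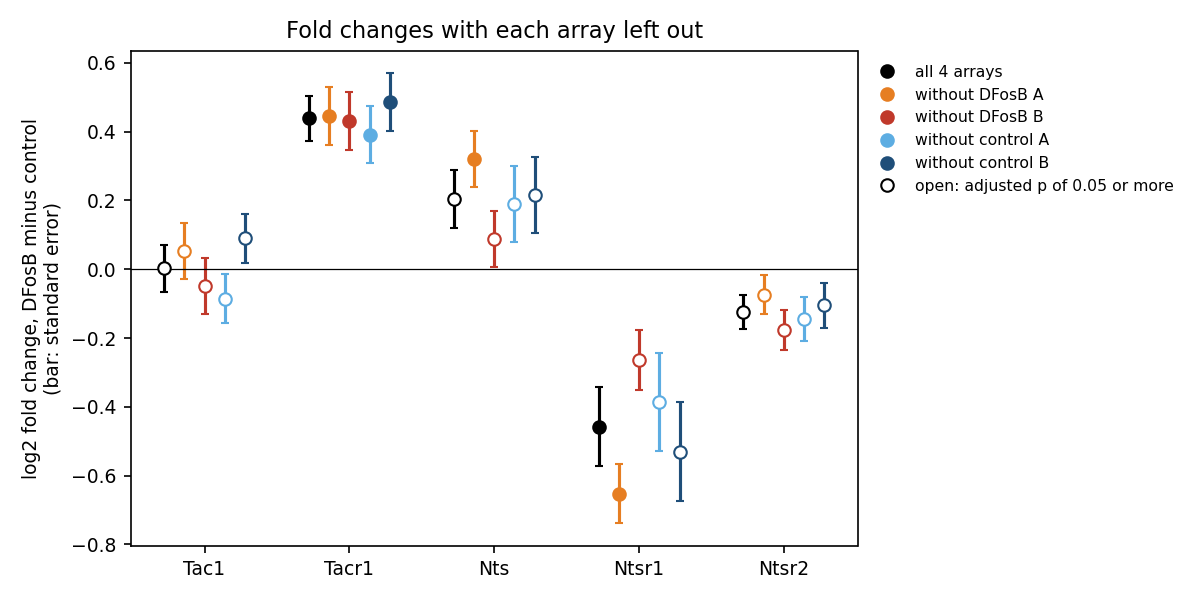
Log2 fold change (DFosB minus control, bar: standard error) of the 5 genes with all 4 arrays and with each array left out; open points have a limma adjusted p of 0.05 or more. Tacr1 stays filled in every fit, Ntsr1 in 2 of 5 fits, and Nts is filled only without DFosB A.

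Related genes were described by counts in 4 groups: further peptides and receptors of both families, enzymes that mature the peptides, enzymes that break them down, and proteins that carry the receptors' signal. Of 36 listed genes 35 were found and 32 passed the filter. Of these 32, 1 rose, 3 fell and 28 did not pass, which is 12.5% passing, against 13.1% of all genes tested. Their median log2 fold change was 0.01, against 0.02 over all genes. The 3 genes below the filter (Tac4, Tacr2 and Dpp4) did not pass in a fit without a filter, in which 8.09% of genes passed. In that fit 1 of them had an unadjusted p under 0.05, as did 5762 of all 21265 genes.

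Tac2, which in mice encodes neurokinin B, a sister peptide of substance P, rose. Its signal was 4030 and 3794 on the DFosB arrays, against 2383 and 2722 on the control arrays, and the log2 fold change was 0.62 (SE 0.075, adjusted p = 0.00137 in limma). Both DFosB values lay above both control values. Tacr3, the receptor for neurokinin B, read 1660 and 1722 on the DFosB arrays and 1667 and 1709 on the control arrays, and its log2 fold change was 0.00 (SE 0.061, adjusted p = 0.984 in limma). The groups overlapped for that receptor. Of the 9 tested hypothalamic markers 5 were higher and 4 did not pass. Oxt, the oxytocin precursor, was higher on the DFosB arrays by 3.02 on the log2 scale and Pomc, the melanocortin precursor, by 0.98. Agrp was among those that did not pass (0.13, limma adjusted p = 0.438), and its groups overlapped. The part of these markers in the Tac2 value was not tested.

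Sort1, sortilin, a sorting protein that also binds neurotensin, fell. Its signal was 5987 and 5923 on the DFosB arrays, against 7359 and 7124 on the control arrays, and the log2 fold change was −0.28 (SE 0.048, adjusted p = 0.00706 in limma). The groups did not overlap, and without control A the adjusted p was 0.0595. Sorl1, a sortilin relative, had a log2 fold change of −0.16 (limma adjusted p = 0.148).

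Of the 5 maturation genes 0 passed the test in limma, and 3 had an unadjusted p under 0.05, as did 4423 of all 14520 genes. Their log2 fold changes ran between −0.17 for Cpe, which trims basic residues off peptide intermediates (limma adjusted p = 0.0985), and 0.22 for Qpct, which forms the pyroglutamate that begins neurotensin (adjusted p = 0.0821). Pcsk1 and Pcsk2, the convertases that cleave both precursors, had log2 fold changes of 0.08 and 0.01. Pam, which adds the terminal amide of substance P, had one of 0.13.

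Among 6 tested breakdown enzymes 0 rose and 2 fell. Mme, neprilysin, a membrane peptidase that cleaves substance P and neurotensin, had signals of 1124 and 991.4 on the DFosB arrays, against 1798 and 1711 on the control arrays. All DFosB values lay well below the control values, and the log2 fold change was −0.73 (SE 0.077, limma adjusted p = 0.000659). Prep, prolyl endopeptidase, had signals of 2409 and 2213 on the DFosB arrays, against 2864 and 2643 on the control arrays. Its log2 fold change was −0.25 (SE 0.070, limma adjusted p = 0.0469), and the call ended under 8 of 14 alternatives, among them no filter (adjusted p = 0.0552). Thop1, thimet oligopeptidase, which cleaves neurotensin, had a log2 fold change of 0.23 (limma adjusted p = 0.0605).

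Of the 17 tested signalling genes 0 passed the test in limma. An unadjusted p under 0.05 was found for 6 of the 17, and for 4423 of all 14520 genes. Gnaq and Gna11, the G proteins themselves, had log2 fold changes of 0.01 and 0.07. The phospholipase Plcb4 lay nearest to the threshold, at −0.26 (limma adjusted p = 0.05003). Nalcn, the sodium leak channel that both substance P and neurotensin open, had a log2 fold change of 0.13 (limma adjusted p = 0.120).

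**Figure D4:**
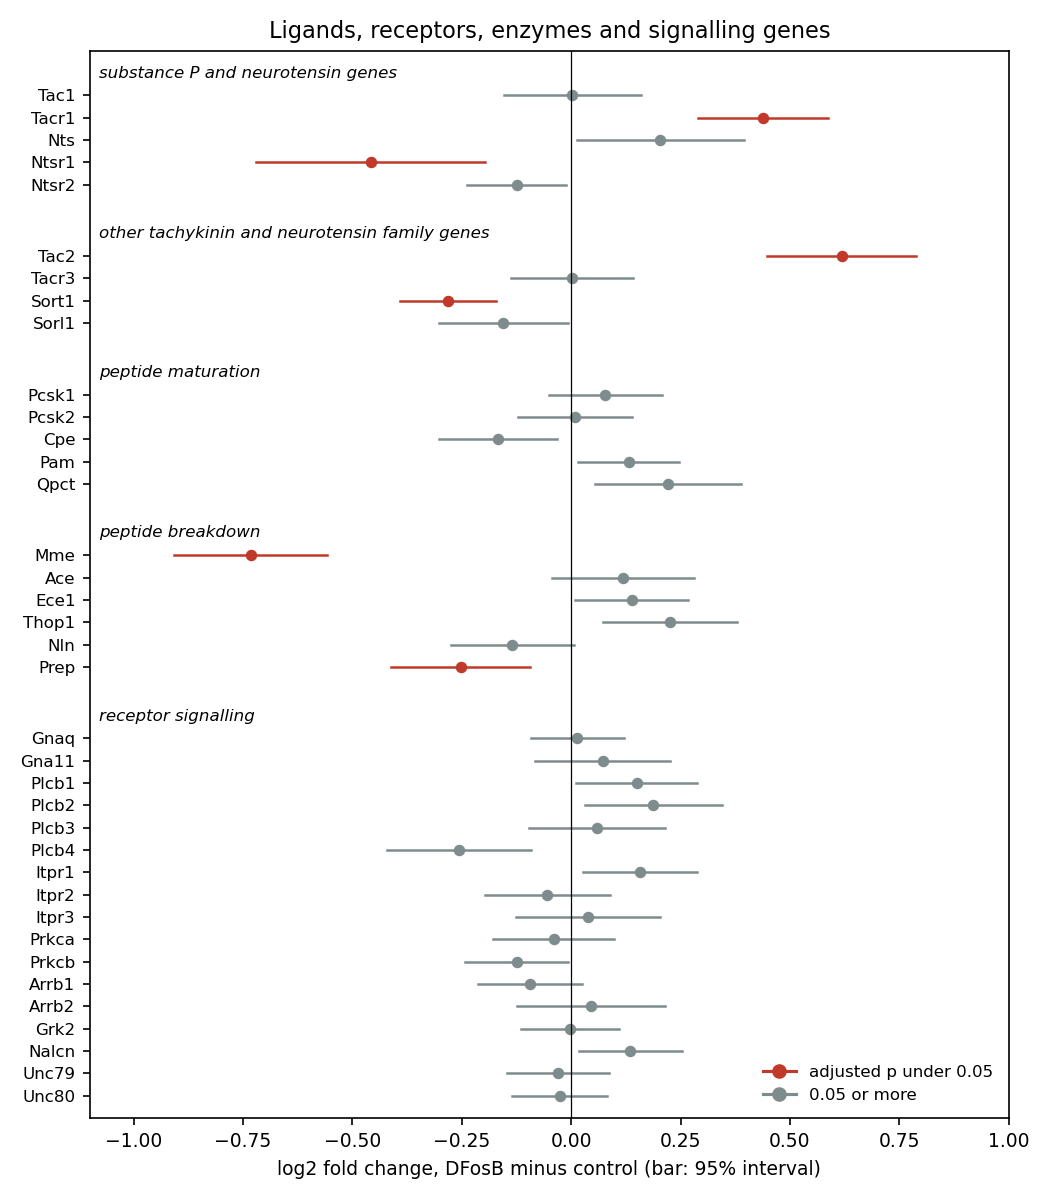
Log2 fold change, DFosB minus control, with its 95% interval for the 5 genes and the 32 tested genes of the related groups; red marks a limma adjusted p under 0.05. Tacr1 (0.44) and Tac2 (0.62) lie to the right of 0, and Ntsr1 (−0.46), Sort1 (−0.28), Mme (−0.73) and Prep (−0.25) to the left.

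Markers of several cell types differed between the groups. Of the 8 tested dopamine markers 7 had a negative log2 fold change. The other, Pitx3, had one of 0.14 (limma adjusted p = 0.172). Slc6a3, the dopamine transporter, had a log2 fold change of −3.59 and Th, tyrosine hydroxylase, one of −1.39, beside −0.46 for Ntsr1. Relative to the control mean, the 8 tested dopamine markers had a median of −1.50 on DFosB A and −1.35 on DFosB B, and of 0.12 on control A and −0.12 on control B. On the same scale Ntsr1 stood at −0.26 on DFosB A and −0.65 on DFosB B, and at 0.07 on control A and −0.07 on control B. The 5 tested thalamic markers had a median of −0.09 on DFosB A and −0.75 on DFosB B, and of 0.21 on control A and −0.21 on control B. Of these markers 0 passed the test in limma, and 2 had an unadjusted p under 0.05, as did 4423 of all 14520 genes. The log2 difference A minus B was 0.39 in the DFosB arrays and 0.14 in the control arrays for Ntsr1. Its median was −0.06 in the DFosB arrays and 0.25 in the control arrays over the dopamine markers, and 0.66 in the DFosB arrays and 0.42 in the control arrays over the thalamic markers. The oligodendrocyte and myelin list, with all 8 genes lower, had a median log2 fold change of −0.55. The part of any of these lists in the Ntsr1 value was not tested.

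Of 10 tested astrocyte markers 1 was higher (Slc1a3, a glutamate transporter) and 3 were lower (Aqp4, the water channel, Aldh1l1 and Fgfr3), with a median log2 fold change of −0.12. The signals of that list summed to 72026 and 72764 on the DFosB arrays, against 75191 and 77663 on the control arrays. Ntsr2 had the same log2 fold change of −0.12, and the part of astrocytes in it was not tested. Of 3 ventromedial nucleus markers 2 were higher, Fezf1 and Nr5a1, where Tac1 did not pass the test. On the control arrays Fezf1 read 185 and 239 and Nr5a1 624 and 673, all under the filter signal of 717. Both genes therefore passed the filter only through the DFosB arrays. Of 8 tested striatal markers 3 were higher and 2 lower. Of 4 tested markers of the medial habenula, a site of abundant Tac1, 0 passed in limma. An unadjusted p under 0.05 was found for 1 of the 4, and for 4423 of all 14520 genes.

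**Figure D5:**
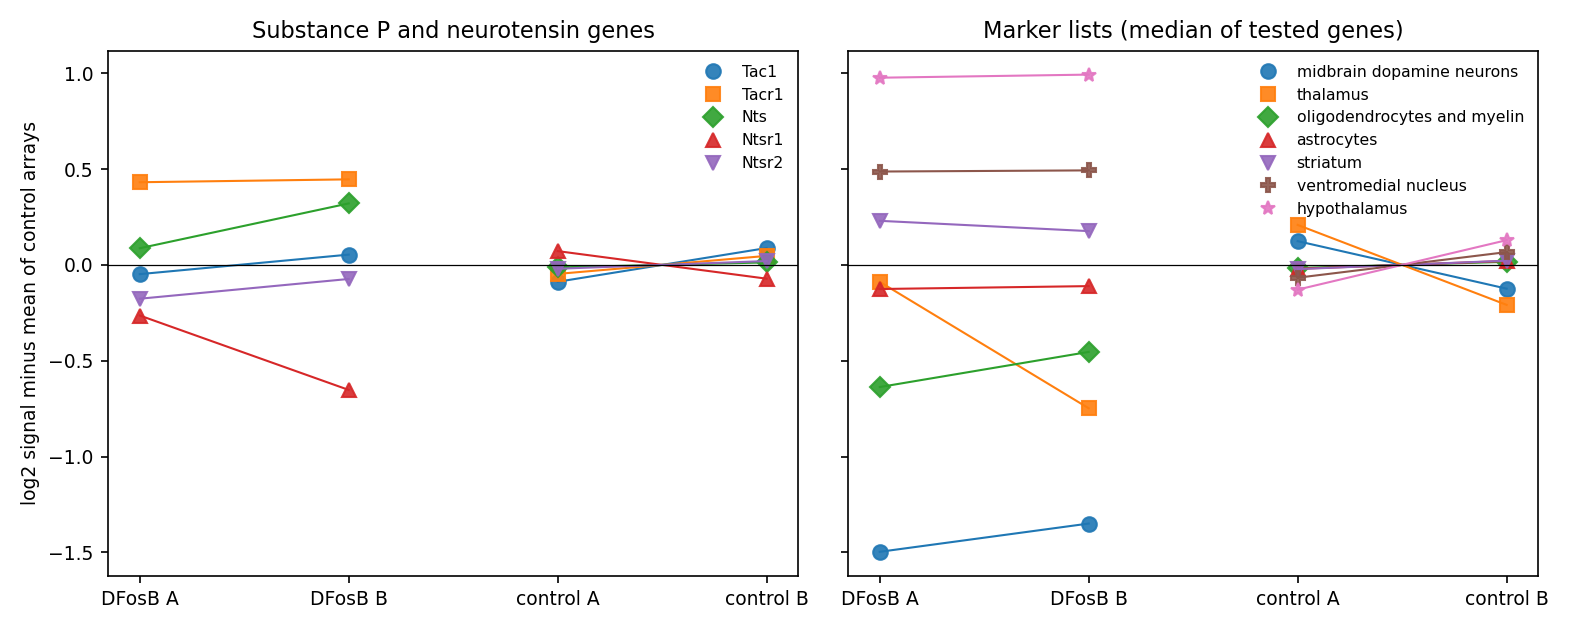
Log2 signal minus the mean of the control arrays on each of the 4 arrays, for the 5 genes (left) and the median of the tested genes of 7 marker lists (right). Ntsr1 and the thalamic list both stand lower on DFosB B than on DFosB A, and the dopamine list is near −1.50 and −1.35 on the DFosB arrays.

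The genes closest to each of the 5 in profile over the 4 arrays were taken by the root mean square difference of centred log2 signals. For Tacr1 the nearest was Cadm1, a synaptic adhesion molecule (0.0083), followed by Kcne1, and 98 genes lay within 0.05 of it. For Ntsr1 the nearest was Rgs7bp, an anchor of G protein regulators (0.013), followed by Mcur1 and Colgalt2, and 7 genes lay within 0.05. Rgs7bp read 5200 and 3984 on the DFosB arrays and 6721 and 5984 on the control arrays. Nts had 203 genes within 0.05, with Swt1, Gm12538 and 1110030E23Rik nearest. Tac1 and Ntsr2 had 921 and 1235, led by Kcnk6, Slc30a4 and Il10rb for Tac1 and by Wbp4, Usp8 and Cdk11b for Ntsr2. With 4 arrays such likeness is a description of these samples.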

How the data were processed

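Per the labels' protocols, RNA was extracted with Trizol and labelled with biotin for Affymetrix arrays. The authors deposited linear probe set intensities. The submitters' processing notes name MAS5, with no version. The genome build, the annotation release and the scaling target of the authors were not given in the sources used here. The authors' sheet held 35474 probe sets.

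Intensities were taken to log2 with no pseudocount. The brightest 60% of probe sets by mean log2 signal were kept, and each gene was represented by its brightest probe set with a single gene identifier. Symbols were updated through RefSeq (GRCm38.p6). Groups were compared with limma (lmFit, eBayes with an intensity trend), DFosB minus control, with no block and Benjamini-Hochberg adjustment over 14520 genes. Standard errors are the moderated ones. The procedure was tested on simulated data. Having 4 arrays limits the precision.

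The 5 genes and the lists were chosen with earlier results of these data known. Named genes were the 5, list genes past the threshold, Fosb, Eno2 and the 3 nearest profiles. Eno2 had a log2 fold change of −0.05 (limma adjusted p = 0.418). Some genes and 1 marker list that these rules take are not reported here. Other list and marker genes were named after their values were seen. The background receptor set held 1216 probe sets. Alternatives were no filter, the upper 40% of signal, quantile normalization, median centring, a pseudocount of 16, no trend, robust estimation, an unmoderated test, probe sets in place of genes, the array letter as a replicate block, and each fit with 1 array fewer. The authors' ratio columns were not used. Tests ran in limma 3.58.1 under R 4.3.3. Tables were handled with pandas 2.3.3 and numpy 2.4.6 in Python 3.11.15, and plots were drawn with matplotlib 3.10.9.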

Additional observations from a re-analysis of the deposited data

How the results depend on the processing

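The number of genes called was 1902 (898 higher and 1004 lower). Median centring gave 1930 (674 higher and 1256 lower), leaving out 1 array gave between 702 (without control A) and 1697, and an unmoderated test gave 0, with 2690 at an unadjusted p under 0.05. The letters A and B are a shared label and nothing in the labels ties same-lettered arrays together; their deviations correlated at 0.24 across genes. With the letter as a replicate block 3824 genes were called (1936 higher and 1888 lower), Nts (0.20, adjusted p = 0.0392) and Ntsr2 (−0.12, adjusted p = 0.0167) passed, and 14 related genes were called in place of 4. The unmoderated test called 0 related genes (7 at an unadjusted p under 0.05) and ended the calls of Tacr1 (0.44) and Ntsr1 (−0.46). Ntsr1 also lost its call with robust estimation (−0.46) and quantile normalization (−0.45). With 1 array left out, log2 fold changes ran between −0.085 and 0.091 for Tac1, 0.087 and 0.32 for Nts, and −0.65 and −0.26 for Ntsr1. Such a fit assumes that the lone array varies like the other group. Tac1 was −0.027 with median centring. Tacr1 and Nts lay below the upper 40% of signal and have no value there.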
